A study of Mus musculus with 4 samples.

Results

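Oligodendrocyte precursor nuclei were studied in single-nucleus RNA sequencing libraries of mouse hippocampus, and 1473 of 32048 barcoded nuclei belonged to them. A nucleus was a member if it held at least 500 unique molecular identifiers (UMIs, counted RNA molecules), at most 5% mitochondrial UMIs, and at least 3 of the 6 markers Pdgfra, Vcan, Cspg4, Lhfpl3, Tnr and Olig1, with Pdgfra or Vcan among them. It could hold at most 1 UMI of Gad1 and Gad2 together, at most 2 UMIs of Rbfox3, and at most 1 of the genes Mog, Mag, Aqp4, Inpp5d and Flt1, which mark other cell types. The members came from 4 droplet libraries, with 379 nuclei in the wild-type (WT) library, 235 and 259 in the first and second PS19 libraries, and 600 in the TG_PS19 library. PS19 mice (PS19Vle/J, on a B6;C3 background) carry Prnp-MAPT*P301S, in which the prion protein gene promoter drives mutant human 1N4R tau and is active in many brain cells besides neurons. TG_PS19 mice came from crosses of PS19 with a SORLA-Rosa26 line, in which a CMV/β-actin promoter element drives SORLA, an endosomal sorting receptor. Both transgenes are therefore not confined by their promoters to one cell type. WT mice carried neither transgene according to their genotype label, and the animals compared were littermates. Frozen hippocampi were pooled within each genotype. The number, sex and exact age of the animals in a pool are not given in the sources used here, and the study title calls the brains aged.

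Oligodendrocyte precursors are glial cells spread through grey and white matter that keep the capacity to divide throughout life. They divide in response to PDGF through the receptor encoded by Pdgfra. When they leave the dividing state they pass through a short committed stage marked by Gpr17, Bmp4, Enpp6 and Bcas1 before they make the myelin proteins of mature oligodendrocytes. They also receive synaptic input from neurons, carry glutamate and GABA receptors, and can express complement and antigen presentation genes in inflamed or degenerating tissue.

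The values of the rule markers describe the members and test nothing. Lhfpl3 stood at 5812 UMIs per 1000000 UMIs of the members (CPM) in WT, 6749 and 7400 in PS19, and 6646 in TG_PS19. Tnr, which encodes the matrix protein tenascin-R, stood at 3118, 3570, 3645 and 3859 CPM in the same order. Pdgfra stood at 782 CPM in WT, 1111 and 911 in PS19, and 787 in TG_PS19. All 6 markers were detected in 35.1% of WT members, 52.8% and 46.7% of PS19 members, and 28.0% of TG_PS19 members. Exactly 3 were detected in 10.0%, 2.98%, 8.88% and 8.17%. Just outside the marker limit, 159 WT, 45 and 58 PS19, and 118 TG_PS19 nuclei held 2 markers and met the rest of the rule. Just outside the other limit, 26, 22, 23 and 94 nuclei held 2 other-class genes, and 28.0% to 31.3% of members held 1.

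Precursor genes that the rule did not use fitted the label. Neu4, a sialidase gene of the oligodendrocyte lineage, stood at 206, 274, 245 and 210 CPM in members of WT, the first and second PS19 libraries and TG_PS19. In the other classes Neu4 reached at most 9.93 CPM, in astrocytes of the first PS19 library. Pcdh15, a protocadherin gene, stood between 3093 CPM in WT and 3308 CPM in TG_PS19, against 252 to 272 CPM in mature oligodendrocytes. Ptprz1, a receptor phosphatase gene, stood at 2464 to 2820 CPM in members and also at 1870 to 2380 CPM in astrocytes, so it did not separate those classes. Sox10, the lineage's transcription factor gene, stood at 311, 408, 386 and 302 CPM in members and below 25 CPM in astrocytes of every library (24.3, 15.9, 5.30 and 18.3). It did not separate members from mature oligodendrocytes. On the scale of a fit to both classes, Sox10 stood at 290, 379, 369 and 310 CPM in members and at 356, 380, 340 and 313 in mature oligodendrocytes. Of 23 precursor identity genes outside the rule, 0 were called between PS19 and WT by edgeR or DESeq2, and 4 had an unadjusted p under 0.05. Their median log2 fold change was 0.12 against 0.008 over all genes tested, and 21 of 23 were positive.

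The libraries differed in depth and in the sex of their animals. Member UMIs summed to 1548739 in WT, 1145126 and 1490760 in PS19, and 2545760 in TG_PS19, with medians per nucleus of 3491, 4573, 5156 and 3903. Xist or Tsix without any Y-linked UMI was found in 2 members each of WT and of both PS19 libraries, and in 310 TG_PS19 members (51.7%). The TG_PS19 pool therefore held female and male tissue, whereas the other pools read as male. Sex and genotype cannot be told apart for that library except within its Y-linked and Xist nuclei. No member barcode was shared between any pair of libraries. Each member set held nuclei scored as doublets, 35 (9.23%) in WT, 14 (5.96%) and 15 (5.79%) in PS19, and 52 (8.67%) in TG_PS19.

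Precursors made up a smaller share of the WT library than of the others. They were 2.97% of passing nuclei in WT (exact 95% interval 2.68 to 3.28). The PS19 libraries held 5.06% (4.45 to 5.73) and 5.26% (4.65 to 5.92), and the TG_PS19 library held 6.17% (5.70 to 6.67). The intervals cover counting error only. Members were chosen by the detected UMIs of the rule's genes, so the shares are a description with no test. The order held when each nucleus was thinned to 1000 UMIs before the rule was applied, at 2.59%, 4.59%, 4.63% and 5.97%. It also held among nuclei outside the neuron class, at 3.43%, 5.79%, 6.23% and 7.22%. In the same libraries mature oligodendrocytes were 29.7%, 41.2%, 39.6% and 34.8% of passing nuclei, and astrocytes were 21.0%, 13.2%, 14.1% and 16.7%. A share falls when other classes are recovered in greater number, and the yield of each class was not measured.

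**Figure D1:**
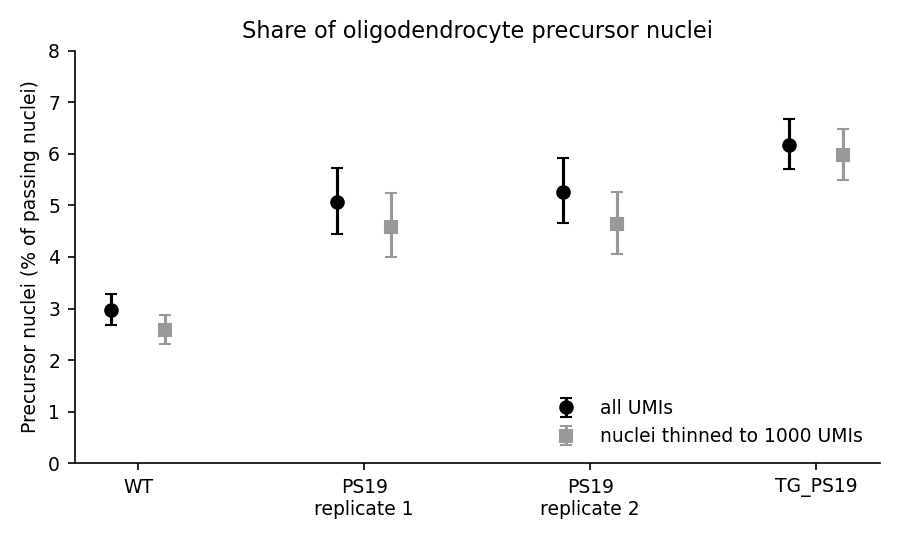
Share of oligodendrocyte precursor nuclei among passing nuclei (y axis, percent) in each of the 4 libraries (x axis); black circles use all UMIs, grey squares use nuclei thinned to 1000 UMIs, and bars are exact 95% binomial intervals for counting error only. The WT share of 2.97% lies below both PS19 shares (5.06% and 5.26%), and the TG_PS19 share of 6.17% lies above them.

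Members with committed-stage or division genes were counted by gene lists. At least 2 of 8 committed-stage genes were detected in 44.3% of WT members, 53.2% and 56.0% of PS19 members, and 52.5% of TG_PS19 members, so this count takes in about as many nuclei as it leaves out. After thinning to 1000 UMIs the shares were 8.71%, 14%, 11.2% and 12%. At least 2 of Bmp4, Gpr17 and Enpp6 were found in 4.22%, 6.81%, 8.11% and 5.17% of members. At least 2 of 13 division genes were found in 6.33%, 5.11%, 9.65% and 5.67%, and in 1.06%, 1.70%, 2.32% and 1.35% after thinning. These counts depend on depth and are not read as cycling, and Top2a was found in 6, 6, 8 and 4 nuclei.

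The transgenes were seen in the members of the libraries labelled with them. Human MAPT gave 0 UMIs in WT, 31 and 42 in PS19 and 61 in TG_PS19, or 27.1, 28.2 and 24.0 CPM in the last 3 libraries. Against the limit of 3 UMIs that the WT library allows, the PS19 mean of 27.6 CPM was at least 14.3-fold higher. Human SORL1 gave 136 UMIs in 114 TG_PS19 nuclei (53.4 CPM) and 0 in WT and both PS19 libraries, at least 20.4-fold higher than PS19 against 3 UMIs per library. Among classes of the TG_PS19 library, SORL1 stood at 53.0 CPM in mature oligodendrocytes, 118 in astrocytes and 34.5 in neurons. Mouse Mapt stood at 323, 360, 351 and 334 CPM and did not pass the test between PS19 and WT (log2 fold change 0.16, SE 0.150) or between TG_PS19 and PS19 (-0.01, SE 0.144). Mouse Sorl1 stood at 30.3 CPM in WT, 15.7 and 20.1 in PS19 and 16.9 in TG_PS19, without a call (PS19 against WT -0.71, adjusted p = 0.533). Reads of the human and mouse genes can be assigned to each other where the sequences match, so the 4 levels are uncertain. Gm43049, a long intergenic RNA gene at chr3:140692038-140760704 (GRCm38), gave 0 UMIs in WT members and stood at 62.9 and 62.4 CPM in the PS19 libraries, below its TG_PS19 level of 110 CPM. Its PS19 mean of 62.6 CPM was at least 32.3-fold above the WT limit, and it was 0.90 higher in TG_PS19 than in PS19 on the log2 scale (SE 0.190, adjusted p = 0.000379).

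The first comparison asked what goes with the tau transgene. UMIs were summed per library over the members and tested with edgeR's quasi-likelihood test, with Benjamini-Hochberg adjustment over 13412 genes, and a gene was called at an adjusted p under 0.05. Between PS19 and WT 156 genes changed, 1.16% of those tested, of which 55 rose (0.41%) and 101 fell (0.753%). At an unadjusted p under 0.05 there were 1108, and DESeq2 called 9 genes. Only the PS19 pair measured any spread, so the lone WT and TG_PS19 libraries were assumed to vary like that pair. The fit pooled that spread over genes and gave a gene's own spread no weight (infinite prior degrees of freedom). A large difference between the PS19 libraries in 1 gene therefore did not widen its SE or raise its p-value. Whether the PS19 libraries are separate pools is not stated, and the p-values may then cover technical spread alone.

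The complement gene C4b, which encodes a component of the classical pathway, was higher in PS19 precursors than in WT. It gave 15 UMIs in WT, 97 and 145 in PS19 and 20 in TG_PS19, or 9.69, 84.7, 97.3 and 7.86 CPM. Both PS19 libraries lay far above the WT and TG_PS19 libraries, whose values lay close together. C4b (chr17:34728380-34743882, GRCm38) rose by 3.26 on the log2 scale in PS19 against WT (SE 0.316, adjusted p = 5.74e-21). It was lower in TG_PS19 than in PS19, with a log2 fold change of -3.45 (SE 0.290, adjusted p = 5.67e-29). TG_PS19 against WT gave -0.19 (adjusted p = 0.967). Both calls were made in all 15 other edgeR settings.

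C4b was not carried by a few nuclei. A C4b UMI was found in 14 of 379 WT members (3.69%), 61 of 235 and 86 of 259 PS19 members (26.0% and 33.2%), and 20 of 600 TG_PS19 members (3.33%). The largest count in 1 nucleus was 2 in WT, 5 and 7 in PS19, and 1 in TG_PS19. Among members not scored as doublets the shares were 2.33%, 25.8%, 33.2% and 3.28%. Among members without any other-class gene they were 2.56%, 24.8%, 31.9% and 3.40%. After thinning to 1000 UMIs they were 1.06%, 11.1%, 9.27% and 1.35%. In neurons, at median depths of 8824.5 to 11819.5 UMIs, the C4b shares were 2.86%, 6.74%, 5.68% and 1.55%, or 0.326%, 1.31%, 0.426% and 0.155% after thinning. The PS19 precursor shares thus lay above the neuron shares at the same thinned depth.

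C4b was higher in PS19 in the other glial classes too. Mature oligodendrocytes held C4b at 31.6 CPM in WT, 299 and 225 in PS19 and 24.0 in TG_PS19, and astrocytes at 52.2, 239, 183 and 44.8. The C4b change from WT to PS19 was larger in precursors than in astrocytes by 1.29 on the log2 scale (adjusted p = 0.0443). From PS19 to TG_PS19 the difference from astrocytes was -1.41 (adjusted p = 0.00406). Against mature oligodendrocytes the C4b differences were 0.13 (SE 0.426) and -0.007 (SE 0.280), and neither passed the test. The absolute C4b level was lower in precursors than in either of those classes in every library.

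**Figure D2:**
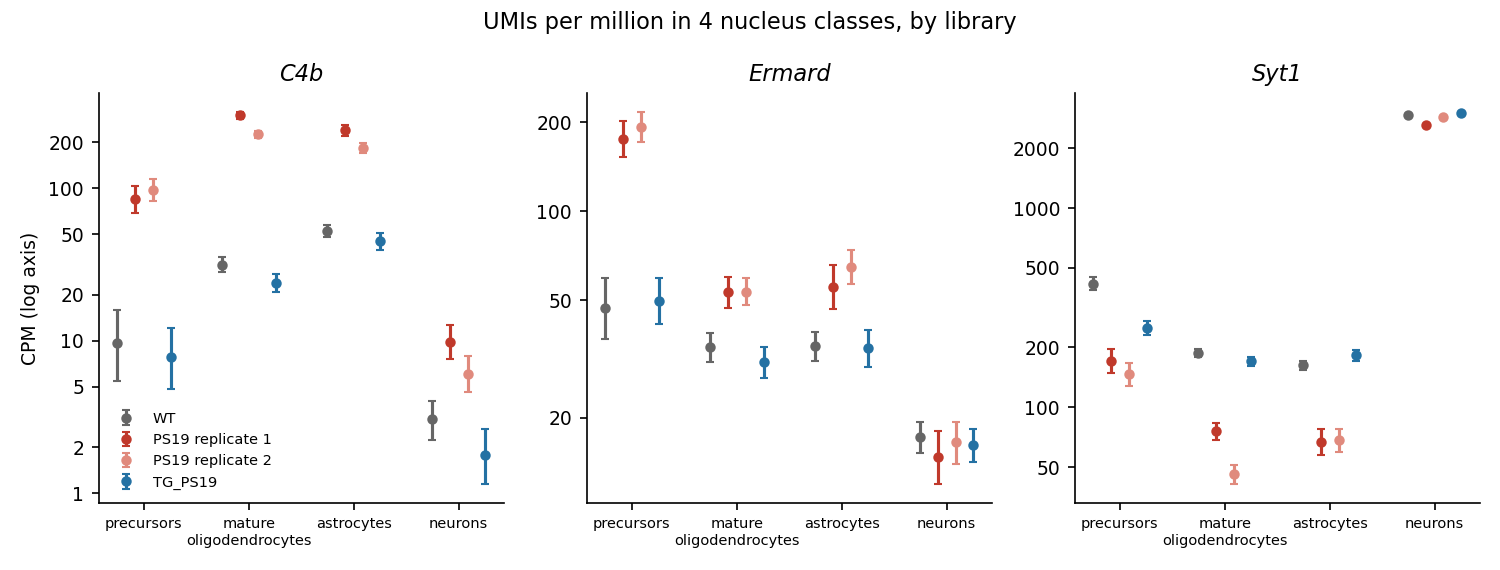
Levels in CPM (y axes, log scale) of C4b, Ermard and Syt1 in precursors, mature oligodendrocytes, astrocytes and neurons (x axes), with 1 point per library and exact 95% Poisson intervals for counting error only. PS19 precursors hold C4b at 84.7 and 97.3 CPM and Ermard at 176 and 193 CPM, above WT and TG_PS19, while Syt1 is lower in PS19 than in WT in all 3 glial classes.

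Antigen presentation and interferon genes are shown with 2 promoters. B2m, a called member of the list, encodes the light chain of MHC class I, and Ddx60 encodes a helicase of the antiviral response. Ddx60 is not in the list and was chosen after its values were seen. The 250 bases before each RefSeq start (GRCm38.p6) are printed 5′ to 3′ on the plus strand, with capitals for matches to the letters GAAANNGAAA, the core of elements bound by interferon-activated factors. The B2m window is chr2:122147437-122147686 and the Ddx60 window is chr8:61927837-61928086.
B2m: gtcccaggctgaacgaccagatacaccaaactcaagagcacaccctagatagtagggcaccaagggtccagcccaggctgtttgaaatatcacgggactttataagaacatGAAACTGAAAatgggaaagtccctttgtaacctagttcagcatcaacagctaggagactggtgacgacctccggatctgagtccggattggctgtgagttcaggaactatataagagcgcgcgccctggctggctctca
Ddx60: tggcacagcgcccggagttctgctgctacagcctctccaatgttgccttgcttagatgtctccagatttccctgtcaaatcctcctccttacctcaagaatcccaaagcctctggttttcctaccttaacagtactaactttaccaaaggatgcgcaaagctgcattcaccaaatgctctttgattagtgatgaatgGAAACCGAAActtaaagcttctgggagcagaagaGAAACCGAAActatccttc
The B2m window holds 1 match and the Ddx60 window holds 2. Searched on both strands, GAAANNGAAA was found in 978 of 32851 RefSeq promoter windows of this length (2.977%), and in 9 of the 19 listed antigen presentation and interferon genes that have an entry. The window before the RefSeq start of H2-D1, also a called member, holds 0 matches to these exact letters. Forms of the element with other letters were not counted, so this does not show that H2-D1 lacks one. These matches describe letters and show no binding.

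The MHC class I gene H2-D1 (chr17:35262730-35267499) stood at 42.0 CPM in WT, 121 and 66.4 in PS19, and 33.0 in TG_PS19. Both PS19 libraries lay above the other 2, although they differed from each other. H2-D1 rose in PS19 with a log2 fold change of 1.15 (SE 0.232, adjusted p = 0.000209), and fell in TG_PS19 against PS19 with -1.39 (SE 0.219, adjusted p = 1.56e-07). B2m (chr2:122147686-122153083) stood at 10.3, 33.2, 22.1 and 16.1 CPM and rose by 1.42 in PS19 (SE 0.402, adjusted p = 0.0395). Its difference between TG_PS19 and PS19 was -0.67 (adjusted p = 0.393). Ddx60 (chr8:61928087-62038244) stood at 11.6, 29.7, 32.9 and 7.86 CPM. It rose by 1.46 in PS19 (SE 0.384, adjusted p = 0.0181) and was lower in TG_PS19 with a log2 fold change of -1.91 (SE 0.369, adjusted p = 6.55e-05). Tap2, a subunit of the peptide transporter that loads MHC class I, stood at 27.1, 29.7, 24.1 and 10.6 CPM, and fell in TG_PS19 against PS19 (-1.25, SE 0.352, adjusted p = 0.0222). TG_PS19 against WT gave -1.24 for Tap2 (adjusted p = 0.0999).

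Of 25 listed antigen presentation and interferon genes, 13 passed the low-count filter. Their log2 fold changes from WT to PS19 were positive in 13 of 13, with a median of 1.02 against 0.008 over all genes, and 2 were called (H2-D1 and B2m). From PS19 to TG_PS19 they were positive in 0 of 13, with a median of -1.0 against -0.011, and 2 were called (H2-D1 and Tap2). Among all genes tested 0.41% were called higher in PS19 against WT and 0.649% lower in TG_PS19 against PS19. The comparisons share the PS19 libraries, so the opposite signs are not independent of each other. Among the genes that were not called, H2-K1 stood at 7.1, 8.73, 18.8 and 5.50 CPM. The calls were lost in some settings, H2-D1 in 4 of 15 and B2m in 9 of 15 for PS19 against WT. In PS19 members with a C4b UMI, H2-D1 was detected in 42.6% and 34.9%, against 35.6% and 26.6% of members without one.

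**Figure D3:**
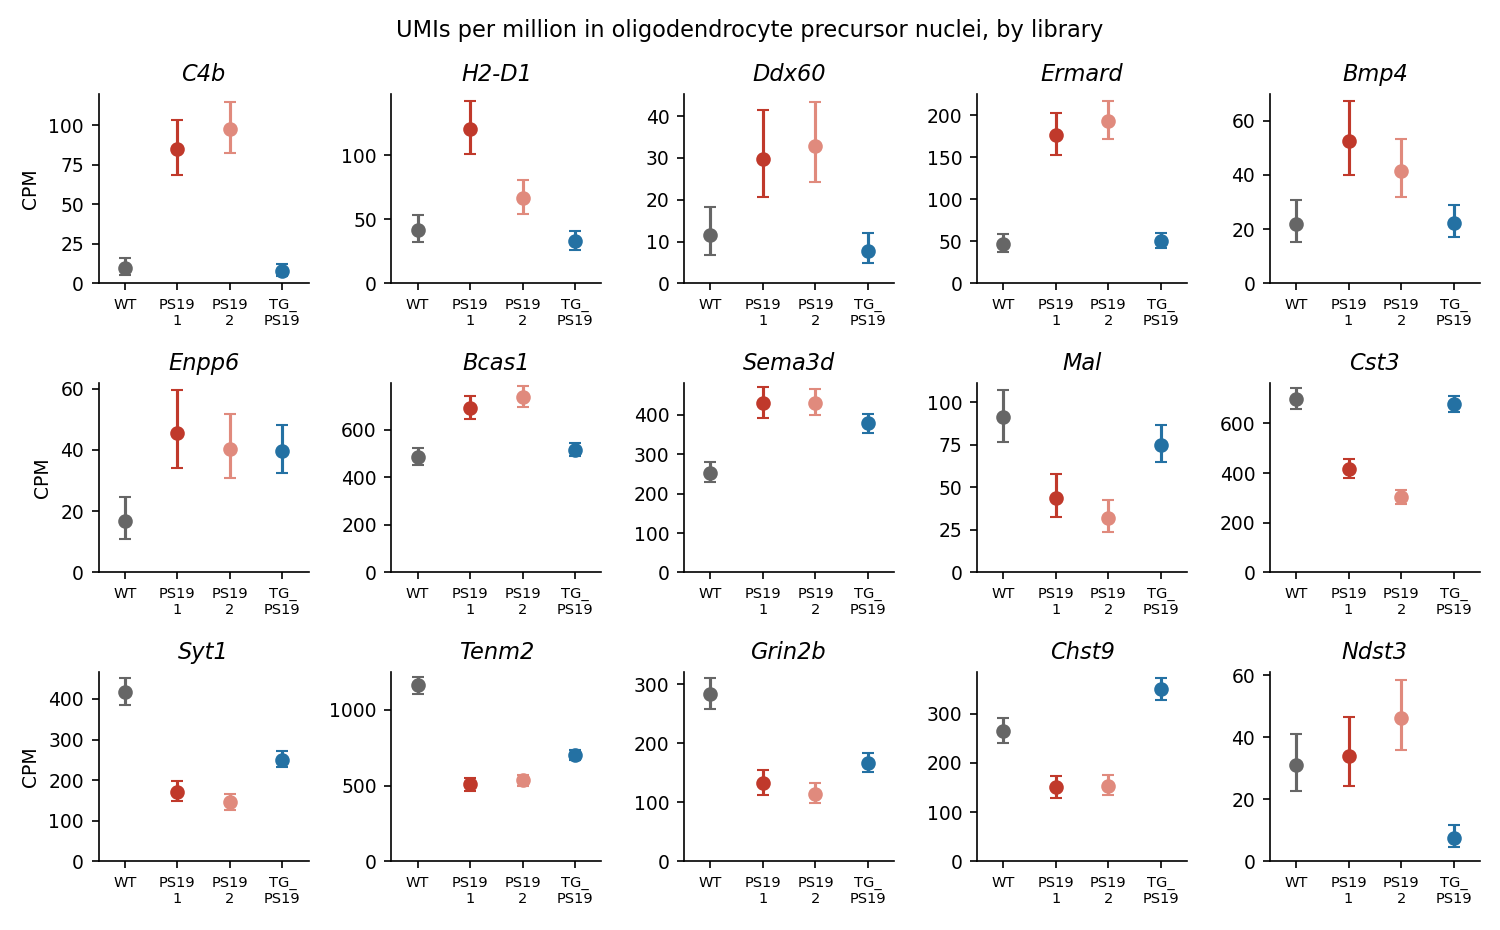
Levels in CPM (y axes, linear from 0) of 15 genes in precursor nuclei of each library (x axes), with exact 95% Poisson intervals for counting error only. C4b, H2-D1, Ddx60, Ermard and Bmp4 are higher in both PS19 libraries than in WT and TG_PS19, whereas Mal, Cst3, Syt1, Tenm2, Grin2b and Chst9 are lower in both than in WT.

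Ermard, which encodes a membrane protein of the endoplasmic reticulum, changed with the same pattern. It lies at chr17:15041208-15090044 and stood at 47.1 CPM in WT, 176 and 193 in PS19, and 49.9 in TG_PS19. It rose by 2.0 in PS19 (SE 0.213, adjusted p = 2.48e-17), and TG_PS19 against PS19 gave -1.81 (SE 0.193, adjusted p = 2.04e-17). Other glia showed the same pattern at lower PS19 levels. Ermard stood at 34.6, 53.2, 53.5 and 30.8 CPM in mature oligodendrocytes of WT, the first and second PS19 libraries and TG_PS19. In astrocytes it stood at 34.9, 55.6, 64.8 and 34.4 CPM in the same order. The Ermard change from WT to PS19 was larger in precursors by 1.27 than in mature oligodendrocytes (adjusted p = 0.00385) and by 1.23 than in astrocytes (adjusted p = 0.00012). Its level in neurons was 17.2, 14.8, 16.5 and 16.1 CPM. Gm3417, a protein-coding gene at chr17:14964242-14978790, stood at 15.5, 86.5, 97.3 and 18.1 CPM and gave 2.60 (adjusted p = 2.27e-16) and -2.27 (adjusted p = 4.67e-17). Together with C4b and Gm43049, Ermard and Gm3417 were called higher in PS19 in all 15 other edgeR settings.

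Other genes higher in PS19 had low counts. Cd163l1, a scavenger receptor gene, stood at 14.2, 43.7, 44.9 and 17.3 CPM and gave log2 fold changes of 1.67 (adjusted p = 0.000209) and -1.28 (adjusted p = 0.0011). Angpt1, which encodes the vessel ligand angiopoietin-1, stood at 10.3, 28.8, 42.3 and 21.2 CPM and rose by 1.83 (adjusted p = 0.000287). Col20a1, a collagen gene, stood at 5.81, 23.6, 21.5 and 8.64 CPM, Wdhd1, a replication gene, at 7.1, 27.9, 23.5 and 13.4 CPM, and Slc5a7, the choline transporter gene, at 10.3, 28.8, 29.5 and 14.9 CPM. Those 3 rose in PS19 by 1.96, 1.86 and 1.52 and lost their calls in 6, 5 and 6 of 15 settings. Sema3d, a secreted guidance factor gene, is more abundant, at 253 CPM in WT, 431 in both PS19 libraries and 379 in TG_PS19. It rose by 0.80 (SE 0.153, adjusted p = 7.36e-05) and differed little between TG_PS19 and PS19 (-0.11, adjusted p = 0.872). Zbtb16, a glucocorticoid-responsive transcription factor gene, stood at 52.3, 107, 93.9 and 77.8 CPM and rose by 0.97 (adjusted p = 0.00229).

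Gfap, the astrocyte intermediate filament gene, was called in both comparisons but rested on few nuclei. It stood at 5.81, 21.8, 76.5 and 6.28 CPM, and the second PS19 library held 114 UMIs in 15 nuclei, 78.1% of them in 5. The log2 fold change in PS19 was 3.16, and 1.91 without the second PS19 library. Astrocytes of the same libraries held Gfap at 103, 528, 513 and 86.7 CPM. Astrocyte markers, with the rule gene Aqp4 among them, summed to 1545, 1139, 1319 and 1310 CPM in the members, with 0 markers at 0. Their part in the Gfap result was not tested, and its PS19 call was lost in 5 of 15 settings.

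Of 16 committed-stage genes tested, 5 rose and 0 fell in PS19, with a median log2 fold change of 0.45 against 0.008 over all genes. Among all genes tested 0.41% rose and 0.753% fell. Bcas1, which marks early myelinating cells, stood at 487, 693, 738 and 515 CPM and rose by 0.59 (SE 0.138, adjusted p = 0.00403). Bmp4, a secreted differentiation signal, stood at 22, 52.4, 41.6 and 22.4 CPM, rose by 1.11 (SE 0.297, adjusted p = 0.0219), and was lower again in TG_PS19 (-0.97, SE 0.265, adjusted p = 0.0147). In the PS19 libraries 66.7% and 45.2% of Bmp4 UMIs lay in 5 nuclei, against 38.2% in WT. Both PS19 libraries lay above the other libraries for Bcas1 and Bmp4. 9630013A20Rik, a noncoding gene of newly formed oligodendrocytes, stood at 83.3, 144, 166 and 156 CPM (0.93, adjusted p = 0.000394). Tcf7l2, the transcription factor of Wnt signalling needed for differentiation, stood at 152, 221, 231 and 183 CPM (0.60, adjusted p = 0.0391). Gpr17, the receptor gene that names the stage, stood at 118, 160, 122 and 133 CPM and was not called (0.27, SE 0.185).

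Enpp6, an early differentiation enzyme gene, stood at 16.8 CPM in WT, 45.4 and 40.2 in PS19 and 39.7 in TG_PS19. It rose by 1.37 in PS19 (SE 0.316, adjusted p = 0.00288) and did not differ between TG_PS19 and PS19 beyond its error (-0.02, SE 0.239). Its UMIs lay in 13 WT, 10 and 12 PS19, and 22 TG_PS19 nuclei, and the top 5 nuclei of a library held 65.4% to 86.5% of them. Within TG_PS19, nuclei with Y-linked UMIs only held Enpp6 at 74.2 CPM and nuclei with Xist UMIs only at 25.8 CPM. With committed-gene nuclei left out, 9630013A20Rik was lower in PS19 (-1.81). This gene is among those that define committed-gene nuclei, so the value follows from the choice of nuclei and tests nothing. Each of the 5 rises lost its call in 5 to 9 of 15 settings. Those settings include the removal of committed-gene nuclei, where a lost call of a defining gene likewise tests nothing.

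Myelin genes of the mature stage were low in the members. Of 14 tested, 1 fell and 0 rose in PS19, with a median of -0.33, while 0.753% of all genes fell and 0.41% rose. Mal, which encodes a myelin proteolipid, stood at 91.0, 43.7, 32.2 and 75 CPM and fell by 1.25 on the log2 scale (SE 0.225, adjusted p = 1.24e-05). Against PS19, TG_PS19 gave 1.08 (SE 0.216, adjusted p = 0.00012). Astrocytes, which should not make myelin, held Mal at 95.5, 45.7, 43.0 and 86.4 CPM. Mature oligodendrocytes held Mal at 986, 841, 695 and 883 CPM. The precursor levels of Mal were near those of astrocytes, in the same order across libraries, and the part of RNA from other cells in them was not tested. Mbp, the myelin basic protein gene, stood at 94.9, 126, 80.5 and 106 CPM, and Mobp at 7.1, 6.11, 4.70 and 9.43 CPM, without calls.

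Cst3, which encodes the secreted protease inhibitor cystatin C, fell in PS19. It stood at 699, 416, 303 and 678 CPM, with -0.94 in PS19 (SE 0.136, adjusted p = 4.28e-09) and 1.00 in TG_PS19 against PS19 (SE 0.133, adjusted p = 6.29e-11). Both calls were made in all 15 other edgeR settings. Mature oligodendrocytes held Cst3 at 1082, 405, 328 and 1026 CPM, and neurons at 305, 156, 133 and 251. Astrocytes, where the gene is most abundant, held it at 2785, 2690, 2078 and 2486 CPM. The Cst3 values of precursors and mature oligodendrocytes were thus low in the same 2 libraries, and the part of free RNA from astrocytes was not tested.

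Neuron markers and listed receptor and channel genes were among the genes that fell. Syt1, the calcium sensor of synaptic vesicles, stood at 418 CPM in WT, 171 and 146 in PS19, and 251 in TG_PS19. It fell by 1.37 in PS19 (SE 0.154, adjusted p = 8.07e-16), and TG_PS19 was 0.74 above PS19 (adjusted p = 0.00029). With only the Y-linked TG_PS19 nuclei the latter value was -0.0018. Tenm2, an adhesion receptor gene, stood at 1161, 508, 534 and 700 CPM (-1.13, adjusted p = 1.22e-15). Much of this RNA lay in few nuclei. The top 5 nuclei of WT, the first and second PS19 libraries and TG_PS19 held 44.4%, 74.5%, 67.9% and 33.5% of Syt1 UMIs. For Tenm2 they held 46.4%, 49.3%, 45.5% and 23.2%. The lowest 12 also held Gda, Sv2b, Hs3st4, Zfp385b, Gabra5, Cntnap5a, Unc5d, Gpc4 and Ndrg4, with log2 fold changes from -2.27 to -1.35. Without the second PS19 library, Hs3st4 gave -3.04 instead of -2.05 and Gabra5 gave -2.45 instead of -1.59.

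Of 21 glutamate receptor and auxiliary genes, 4 fell and 0 rose in PS19. The list as a set did not fall, with a median log2 fold change of 0.03 and 13 of 21 positive. The counts of this paragraph stand against 0.753% of all genes tested that fell and 0.41% that rose. Grin2b, an NMDA receptor subunit, stood at 283, 133, 115 and 167 CPM (-1.17, adjusted p = 1.1e-09) and Grin2a at 325, 136, 187 and 199 CPM (-0.96, adjusted p = 8.01e-07). Grin2b UMIs lay in 63, 16, 28 and 94 nuclei, and the top 5 nuclei held 44.6%, 78.3%, 68.4% and 43.6% of them. Gria1, an AMPA receptor subunit, gave -0.83 and the metabotropic receptor Grm3 gave -1.01. Among members with no other-class gene, Gria1 (0.11) and Grin2a (0.093) turned positive and were not called. Gria2, the most abundant AMPA subunit gene of these nuclei, stood at 1568, 1796, 1637 and 1585 CPM and was not called (0.16, SE 0.117). Of 24 GABA receptor and ion channel genes, 3 fell, among them Kcnip4 and Gabra2. For Kcnip4 the top 5 nuclei held 41.6%, 74.8%, 64.2% and 42.4% of its UMIs. Of 34 adhesion and synaptic organiser genes, 4 fell (Cntnap5a, Ntng1, Cntnap2 and Tenm2) and Sema3d rose.

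Neuron markers moved with these genes. The 8 listed, with the rule genes Gad1, Gad2 and Rbfox3 among them, summed to 922 CPM in WT, 531 and 497 in PS19 and 631 in TG_PS19. The 5 tested outside the rule had a median log2 fold change of -0.70 in PS19 against WT, with 0 positive. At least 2 neuron genes outside the rule were found in 85 WT members (22.4%), 40 (17%) and 46 (17.8%) PS19 members, and 118 (19.7%) TG_PS19 members. No neuron marker was at 0 in any library. Syt1 was also lower in PS19 in mature oligodendrocytes (188, 75.8, 46.1 and 170 CPM) and astrocytes (163, 67.1, 68.3 and 182 CPM), and stood at 2609 to 3002 CPM in neurons. The difference of the Syt1 change from WT to PS19 was 0.18 against mature oligodendrocytes (adjusted p = 0.82). With the members that held neuron genes left out, 14 genes were called between PS19 and WT, and log2 fold changes of Cntnap2 (0.35) and Cntnap5a (0.41) were positive.

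**Figure D4:**
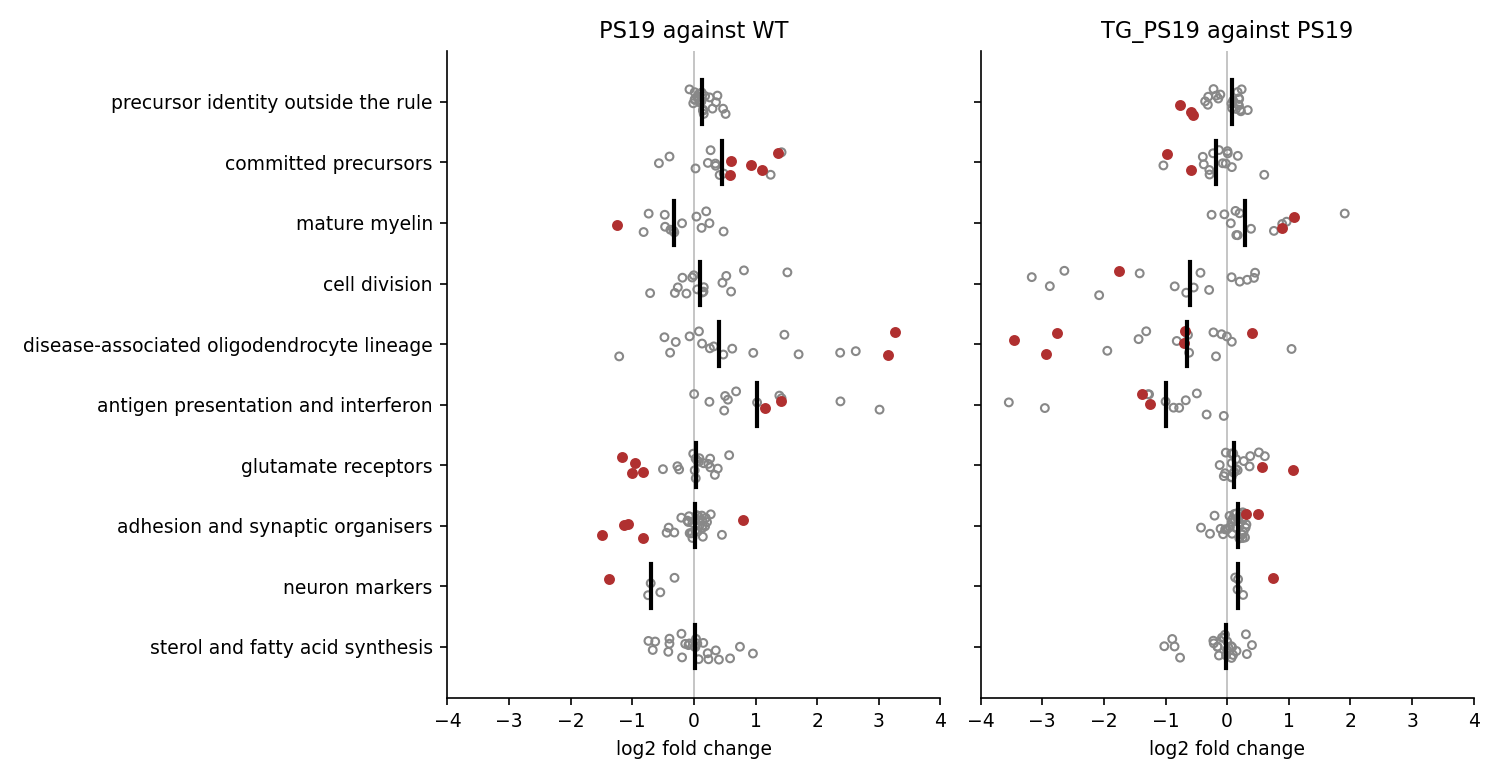
Log2 fold changes (x axes) of the genes of 10 lists (rows) in precursor nuclei, PS19 against WT at left and TG_PS19 against PS19 at right; each circle is a gene, red filled circles are called genes and black bars are medians. Osmr, with 0 UMIs in TG_PS19, is drawn at its bound of -2.76. Antigen presentation and interferon genes have a median of 1.02 at left and -1.0 at right, and sterol genes stay near 0 (0.02 and -0.03).

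The second comparison asked what raised SORLA adds in mice with the tau transgene. Between TG_PS19 and PS19 336 genes changed, 2.51% of those tested, of which 249 rose (1.86%) and 87 fell (0.649%). DESeq2 called 10 genes, with the sex-linked Xist and Tsix among them, and 1537 had an unadjusted p under 0.05. Scaled by library totals instead of trimmed means, 189 of 327 calls were higher, 57.8% against 74.1%, with the median of all genes shifted to -0.09. Of the calls, 7 were sex-linked, and 143 of the 308 others that met the level and direction limits for naming had only a clone, Gm or Rik name.

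C4b, Gfap, Ddx60, Ermard, H2-D1, Col20a1 and Cd163l1, all higher in PS19 than in WT, were among the 12 named genes with the lowest values in TG_PS19 against PS19, and these are described above. Ndst3, a heparan sulfate enzyme gene, stood at 31.0, 34.1, 46.3 and 7.46 CPM and fell in TG_PS19 (-2.36, SE 0.344, adjusted p = 5.95e-09), while 97.9% of its WT UMIs lay in 5 nuclei. Top2a, a topoisomerase gene of dividing cells, stood at 20.7, 18.3, 26.2 and 6.28 CPM in 6, 6, 8 and 4 nuclei and fell with -1.76 (SE 0.411, adjusted p = 0.00201). Top2a was the single call among 16 division genes tested, against 0.649% of all genes called lower. Of the 16, 6 had an unadjusted p under 0.05, and Mki67 stood at 12.3, 11.4, 14.8 and 10.2 CPM. Rmi2 and Cry1, a DNA repair and a clock gene, fell with -1.37 and -1.27, and Cry1 gave -0.66 without the second PS19 library.

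Of 18 genes listed as raised in the oligodendrocyte lineage in disease, 5 fell and 1 rose from PS19 to TG_PS19, with a median of -0.66 against -0.011. Among all genes tested 0.649% fell and 1.86% rose. Cd9, a tetraspanin gene, stood at 298, 447, 368 and 240 CPM (-0.68, SE 0.149, adjusted p = 0.000761). Stat3, the transcription factor of cytokine signalling, stood at 74.9, 113, 113 and 66.0 CPM (-0.70, adjusted p = 0.0165). Osmr, the oncostatin M receptor gene, gave 0 UMIs in TG_PS19 and a PS19 mean of 7.99 CPM, at least 6.78-fold above the TG_PS19 limit. It rested on few nuclei, with 6 UMIs in 3 and 16 UMIs in 7 nuclei of the PS19 libraries, and WT gave 2 UMIs. Apoe, the apolipoprotein E gene, rose by 0.40 (adjusted p = 0.0426), a call lost in 13 of 15 settings. Serpina3n, a protease inhibitor gene raised in reactive glia, stood at 4.52, 18.3, 11.4 and 5.50 CPM and was not called in either comparison.

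Of 23 precursor identity genes, 3 fell in TG_PS19 against PS19, while 0.649% of all genes tested fell. Olig2, the lineage transcription factor gene, stood at 149, 190, 171 and 114 CPM (-0.59, adjusted p = 0.0297), and Sox8 at 159, 190, 148 and 93.1 CPM (-0.77, adjusted p = 0.0014). Matn4 gave -0.55 (adjusted p = 0.0172). Fyn, a kinase gene of myelin initiation, stood at 389, 489, 528 and 320 CPM (-0.59, adjusted p = 0.00347). Fgfr2, a growth factor receptor gene, rose by 0.49 (adjusted p = 0.0108). The median over the 23 identity genes was 0.08, so the list as a set did not lie below all genes (-0.011).

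Chst9, a sulfotransferase gene, was higher in TG_PS19 than in all other libraries. It stood at 265 CPM in WT, 150 and 154 in PS19 and 350 in TG_PS19, with 1.28 against PS19 (SE 0.152, adjusted p = 6.82e-14) in all 15 other edgeR settings and -0.77 in PS19 against WT (adjusted p = 0.000459). Astrocytes held Chst9 at 88.0, 118, 126 and 88.7 CPM, where both PS19 libraries were above WT and TG_PS19, and the change from PS19 to TG_PS19 differed between the classes by 1.58 (adjusted p = 5.88e-14). Ctnna3, an alpha-catenin gene, stood at 1239, 1216, 1283 and 1843 CPM (0.64, SE 0.115, adjusted p = 1.01e-05). Mgat4c, a glycosyltransferase gene, stood at 116, 71.6, 63.7 and 152 CPM (1.25, adjusted p = 4.66e-09). Ttr, the transthyretin gene of choroid plexus, stood at 11.6, 23.6, 23.5 and 53.4 CPM (1.26, adjusted p = 0.000165). The other named genes that rose were SORL1, Hs3st4, Plxna4os3, Grm8, Chmp4c, Stx19, Aim2, S1pr1 and Spock1. Grm8 turned to -0.33 with at least 4 markers and to -0.55 with neuron-gene nuclei left out. Without the second PS19 library, Hs3st4 gave 2.55 instead of 1.56 and Chmp4c gave 2.24 instead of 1.38. Of 5 microglia markers tested, 2 rose, among them P2ry12 (0.81), against 1.86% of all genes. The list, which also holds the rule gene Inpp5d, summed to 175, 202, 131 and 246 CPM, and its part in the TG_PS19 values was not tested.

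Female and male nuclei of the TG_PS19 library were compared as values. In TG_PS19, nuclei with Y-linked UMIs only held C4b at 6.60 CPM and nuclei with Xist UMIs only at 7.57, both below the PS19 libraries. Ermard stood at 36.3 and 56.8 CPM, H2-D1 at 23.1 and 37.1, and Cst3 at 566 and 645 in the same order. Chst9 was higher in the Y-linked nuclei (426 CPM) than in the Xist nuclei (308). Bcas1 stood at 678 CPM in Y-linked nuclei, near the PS19 values, and at 450 in Xist nuclei. Syt1 stood at 147 CPM in Y-linked nuclei, also near the PS19 values, and at 282 in Xist nuclei. With only the Y-linked TG_PS19 nuclei, 186 genes were called against PS19, of which 121 were among the 336.

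TG_PS19 and WT, both sampled once, differed in 165 genes (1.23% of those tested), of which 117 rose (0.872%) and 48 fell (0.358%). The 48 included the 4 listed Y-linked genes, which read the sex of the pool. DESeq2 called 3 (Gm43049 and the sex-linked Tsix and Xist), and 1266 had an unadjusted p under 0.05. By library totals 46.4% of calls were higher, against 70.9%, with a median shift of -0.11. Cntnap5a (-1.19, adjusted p = 2.32e-05) and Kcnip4 (-0.80, adjusted p = 3.41e-05) were lower than in WT. Enpp6 (1.34, adjusted p = 0.00897), 9630013A20Rik (1.01, adjusted p = 0.000571) and Sema3d (0.69, adjusted p = 0.00871) were higher.

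Counts of calls in other listed pathways stand against 1.16% of all genes tested for PS19 against WT and 2.51% for TG_PS19 against PS19, at which lists of this size hold few calls or none. Of 15 Notch pathway genes, 0 were called by edgeR or DESeq2 in the first or second comparison, with 2 and 1 at an unadjusted p under 0.05 and medians of -0.01 in each. Hes5, a target gene of that pathway, stood at 54.2, 69.0, 45.6 and 44.8 CPM. Of 24 sterol and fatty acid synthesis genes, 0 were called by either tool, with 2 and 4 at an unadjusted p under 0.05 and medians of 0.02 and -0.03. Of 18 PDGF and FGF receptor and feedback genes, Pdgfc fell in PS19 (-0.88) and Fgfr2 rose in TG_PS19. Of 16 BMP and TGF-beta genes, Bmp4 rose and Id2 fell in PS19 (-1.07, adjusted p = 0.0475). Of 14 Wnt genes, Tcf7l2 was the single call in the first comparison. Among 21 matrix genes Adamts9, a versican-cleaving protease gene, rose in PS19 (0.82) and fell in TG_PS19 (-0.63), where Cspg5 also fell (-0.46). Of 10 immediate early genes and 13 senescence genes, 0 were called by either tool in either comparison, with 3 and 3 of the former and 2 and 3 of the latter at an unadjusted p under 0.05. Of 10 ERBB, IGF and TRK receptor genes, Nrg3, a neuregulin ligand gene, was the single call, 0.38 higher in TG_PS19 than in PS19 (adjusted p = 0.0296). Of 12 stress response genes, Xbp1 was the single call, 1.09 higher in TG_PS19 (adjusted p = 0.0491). Of 18 clock genes, Arntl rose by 1.10 and Cry1 fell in TG_PS19 against PS19.

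The difference of the change between precursors and other glia was tested with library as a block. Against mature oligodendrocytes 503 of 18362 genes differed from WT to PS19 (2.74%) and 299 from PS19 to TG_PS19 (1.63%), the latter 191 without the block. Against astrocytes 198 of 16793 (1.18%) and 276 (1.64%) differed, and without the library block 23 and 39. Zdhhc23, a palmitoyltransferase gene, was steady in precursors (40.5, 46.7, 41.3 and 41.2 CPM on the scale of that fit) and went from 3.87 to 20.8 and 21.7 in PS19 astrocytes, a difference of -2.34 (adjusted p = 7.54e-07). Sgk1, a stress kinase gene, stood at 157, 183, 204 and 199 in precursors and at 56.0, 206, 186 and 156 in mature oligodendrocytes, a difference of -1.49 (adjusted p = 6.68e-05). Junb stood at 12.7, 10.4, 15.6 and 5.82 in precursors and at 16.1, 70.2, 74.7 and 7.79 in astrocytes (-2.10, adjusted p = 0.00262). In these 3 genes the other class moved and the precursors moved less. Many terms against mature oligodendrocytes belonged to genes with low levels there, such as Hes5 at 11.1, 1.59, 1.43 and 9.81 in that class.

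**Figure D5:**
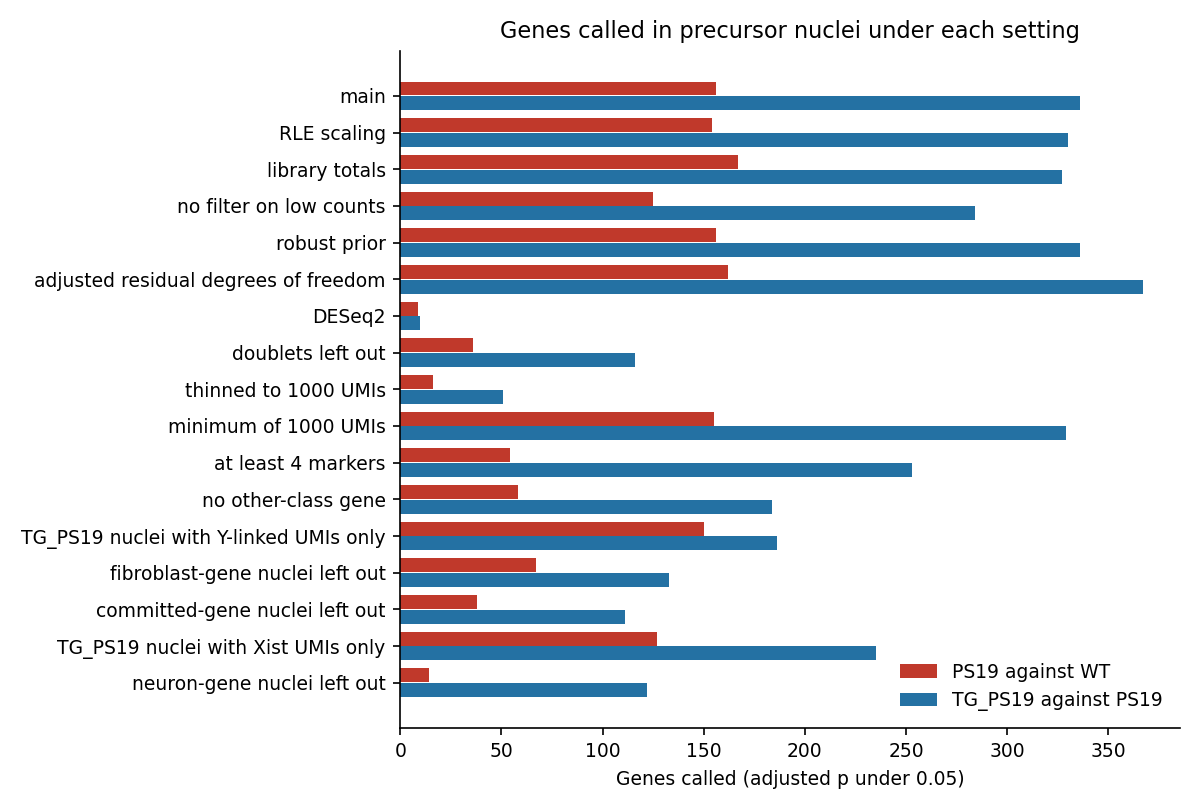
Number of genes called in precursor nuclei (x axis, linear from 0) in PS19 against WT (red) and TG_PS19 against PS19 (blue) under the main analysis and 16 other settings (y axis). Counts run from 9 with DESeq2 to 167 by library totals for PS19 against WT, and from 10 with DESeq2 to 367 with adjusted residual degrees of freedom for TG_PS19 against PS19.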

How the data were processed

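The deposited values were raw UMI counts per gene and barcode, counted by the authors on GRCm38 using Cell Ranger 7.1.0, according to the submitters' processing notes. Per the labels' protocols, each library was made with a 10x Genomics 3′ kit and read on an Illumina NovaSeq instrument. From the counts, members were found by the rule in the report, and other classes by at least 3 of their own markers. UMIs were summed per library, and 1 model over all 4 libraries was fitted in R 4.3.3 (edgeR 4.0.16, limma 3.58.1), using its low-count filter, TMM scaling and two-sided quasi-likelihood tests with Benjamini-Hochberg adjustment at 0.05; 1 residual degree of freedom came from the PS19 pair. This pair differed by more than sampling noise (chi-square per degree of freedom 1.68 over 11552 genes). The 14 rule genes were not removed from the fit or its adjustment, but none of them was called or read as a result. Doublets were scored per library (0.8% per 1000 nuclei) and left in the main fit. The code was tested on simulated data with a fixed spread, set larger than the fitted common spread. For PS19 against WT it found 16 of 100 genes with a true log2 change of 1 and 82 of 100 with a change of 2. A gene without a call can therefore still have changed. Alternatives included DESeq2 1.42.0, other scalings, and subsets of nuclei, of which 2 (nuclei without neuron genes, Xist nuclei) were chosen after seeing the data. Named genes were the 12 highest and 12 lowest called genes with at least 20 CPM in a group, both PS19 libraries on one side of the lone library and an informative symbol, plus called members and examples of 29 gene lists; some of them are not reported here. The members and lists were chosen with earlier results of these data known. Gene positions came from GENCODE M21 (GRCm38), matched by identifier without version for 55141 of 55403 features.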

Additional observations from a re-analysis of the deposited data

Results flagged for a closer look

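Each value here is the log2 change in precursors minus the log2 change in another glial class of the same libraries, and each passed edgeR's test of that difference at an adjusted p under 0.05. Levels in the class with few UMIs can be set by a handful of counts, and no cause was tested.

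Between WT and PS19, precursors rose more, or fell less, than mature oligodendrocytes in Fabp7 (3.34), Gucy2f (3.01), Dpysl3 (2.96), Hes5 (2.92), Fndc1 (2.86), Gfap (2.42), Ermard (1.27) and Chst9 (0.96). They rose less, or fell more, in Galnt5 (-3.32), Neu4 (-2.94), Klf10 (-2.04), Aldh1l2 (-1.98), Sgk1 (-1.49) and Mal (-0.99). Neu4, a precursor gene, changed little in precursors, while its level in mature oligodendrocytes was 0.637, 5.95, 6.81 and 4.33 CPM. Dpysl3 stood at 93.5, 137, 136 and 157 CPM in precursors and at 5.31, 1.19, 0.792 and 4.97 in mature oligodendrocytes. Between PS19 and TG_PS19 the differences were Adam11 (3.09), Masp1 (1.90), Rhoj (1.41), Aldh1l2 (1.38), Rnf141 (1.28) and Mal (0.90) on the higher side. On the lower side they were Ndst3 (-3.57), Hes5 (-2.89), Etv4 (-2.72), Fstl4 (-2.60), Reln (-2.59) and Ermard (-0.99). Adam11 stood at 30.8, 25.2, 29.5 and 27.8 CPM in precursors and at 132, 162, 136 and 17.4 in mature oligodendrocytes, where only the TG_PS19 library was low.

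Against astrocytes, the differences from WT to PS19 were Piezo2 (3.38), Plk5 (2.64), Kcna1 (2.64), Cd200 (2.64), Enpp6 (2.46), C4b (1.29) and Ermard (1.23) on the higher side. On the lower side they were Has2 (-2.57), Zdhhc23 (-2.34), Cmya5 (-2.30), Junb (-2.10), Nell1 (-1.92) and Chst9 (-1.23). Kcna1, a potassium channel gene, stood at 29.8, 56.3, 40.6 and 29.1 CPM in precursors and at 23.7, 7.54, 4.85 and 10.6 in astrocytes. From PS19 to TG_PS19 they were Agt (2.79), Has2 (2.39), Cmya5 (2.13), Junb (2.03), Ebf1 (1.72) and Chst9 (1.58) on the higher side. On the lower side they were Ndst3 (-3.30), Piezo2 (-2.73), Chrm3 (-2.57), Pou3f1 (-2.47), Atp2b3 (-2.41), Enpp6 (-1.96), Bcas1 (-1.52), C4b (-1.41) and Ermard (-1.16). Piezo2, a mechanically gated channel gene, stood at 12.7, 38.1, 29.1 and 15.8 CPM in precursors and at 5.97, 1.51, 1.43 and 4.75 in astrocytes.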

How the results depend on the processing

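Counts of called genes for PS19 against WT, TG_PS19 against PS19 and TG_PS19 against WT, in that order, were 156, 336 and 165 in the main analysis. They were 9, 10 and 3 with DESeq2, 36, 116 and 19 with doublets left out, 16, 51 and 9 after thinning to 1000 UMIs, 58, 184 and 95 with no other-class gene, 67, 133 and 18 with fibroblast-gene nuclei left out, 38, 111 and 19 with committed-gene nuclei left out, and 14, 122 and 20 with neuron-gene nuclei left out. With at least 4 markers they were 54, 253 and 66, and with Y-linked TG_PS19 nuclei 150, 186 and 203. RLE scaling, library totals, no filter, a robust prior, adjusted degrees of freedom, a minimum of 1000 UMIs and Xist TG_PS19 nuclei kept each count within 1.5 times (125 to 167, 235 to 367 and 111 to 187). Each subset of nuclei also lowers the counts behind the test. Of the calls, 7 of 156, 21 of 336 and 1 of 165 were made with the same sign in all 15 other edgeR settings. Differences against mature oligodendrocytes from PS19 to TG_PS19 numbered 469 by library totals and 191 without the library block, and those against astrocytes numbered 23 and 39 without the block. The cause of these changes was not tested.

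Shares of WT, the PS19 libraries and TG_PS19 were 3.43%, 5.79%, 6.23% and 7.22% of non-neuronal nuclei, 2.59%, 4.59%, 4.63% and 5.97% after thinning, 2.67%, 4.91%, 4.79% and 5.67% with at least 4 markers, and 2.14%, 3.55%, 3.70% and 4.24% with no other-class gene. Committed shares were 8.71%, 14%, 11.2% and 12% after thinning and 4.22%, 6.81%, 8.11% and 5.17% by 3 genes, and shares with at least 2 division genes were 1.06%, 1.70%, 2.32% and 1.35% after thinning. Among 99 named gene results, signs turned for PS19 against WT in Cntnap5a (0.41) and Cntnap2 (0.35) with neuron-gene nuclei left out, Cntnap2 (0.19) with doublets left out, 9630013A20Rik (-1.81) with committed-gene nuclei left out, Gria1 (0.11) and Grin2a (0.093) with no other-class gene, and Gabra2 (0.0096) after thinning. For TG_PS19 against PS19 they turned in Grm8 (-0.33 with at least 4 markers, -0.55 with neuron-gene nuclei left out) and, with Y-linked TG_PS19 nuclei, in Syt1 (-0.0018), Uty (0.76), Ddx3y (0.58), Eif2s3y (0.41) and Kdm5d (0.60). Uty, Ddx3y, Eif2s3y and Kdm5d define the Y-linked nuclei, and 9630013A20Rik is among the genes that define committed-gene nuclei. The values of these genes in those settings follow from the choice of nuclei and test nothing. Leaving out a PS19 library left no residual degree of freedom and gave values with no test. No paired analysis was possible because only PS19 has replicate numbers and the other groups have 1 library each.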

Other observations

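Ermard has neighbours that followed its pattern in precursors, a set chosen after its values were seen. On chr17 (GRCm38), Gm3417 (14964242 to 14978790), 9030025P20Rik (14978468 to 14991572), Gm3448 (14995787 to 15041537) and Gm3435 (15010176 to 15022449) lie before Ermard, which starts at 15041208. The 9030025P20Rik gene stood at 32.3 CPM in WT, 53.3 and 66.4 in PS19 and 33.0 in TG_PS19, with log2 fold changes of 0.93 (edgeR, adjusted p = 0.031) and -0.79 (adjusted p = 0.0296) in the first and second comparison. Gm3435 gave 4, 23, 31 and 7 UMIs, with 2.98 (adjusted p = 0.00105) and -2.79 (adjusted p = 0.000146). Gm3448 stood at 40.7, 62.0, 75.8 and 40.9 CPM and was not called (0.80, adjusted p = 0.0659, and -0.69). The genes just before that stretch, Phf10 (22.6, 27.9, 26.2 and 16.1 CPM) and 1600012H06Rik (26.5, 27.1, 17.4 and 19.3 CPM), were not called. The pattern was not confined to precursors. Gm3417 stood at 7.95, 24.4, 29.5 and 7.16 CPM in mature oligodendrocytes and at 8.41, 20.6, 12.7 and 7.23 in astrocytes. The 9030025P20Rik gene stood at 16.0, 29.5, 28.0 and 17.2 CPM in mature oligodendrocytes. In neurons Gm3417 stood at 8.25, 9.68, 9.42 and 5.76 CPM. Several of these genes carry only model names and some overlap one another, so the assignment of reads among them is uncertain.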
